A study of Mus musculus with 23 samples.

Results

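Hematopoietic stem cells keep dividing without maturing with the help of a small set of transcription factors, and 10 genes of that set were followed here: the homeobox genes Hoxa9 and Hoxa7, the HOX partner Meis1, the factors Hlf, Mecom, Gata2 and Runx1, the coactivator Mn1, and the surface proteins Cd34 and Ly6a (Sca-1). The genes were taken by symbol, and for each symbol the probe set with a single gene symbol and the highest mean over the 23 arrays was used. Of the 10 genes, 9 had such a probe set and are described, out of 19938 genes in all. Ly6a had none in the array annotation used here, so no value is given for it. Of the 9, 8 lay above the 30th percentile of an array on at least 3 arrays and were among the 15542 genes tested. Mecom did not reach that level.

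Total RNA was measured on 1-colour arrays, 1 array per sample, in bone marrow cells of mice that all received a single dose of 2 Gy at 2 months of age, so no group is unirradiated. The mice carried either both copies of Pax5 (WT) or only 1 copy (Pax5+/-). Preleukemic samples held pro-B together with pre-B cells, collected 3 weeks after the dose, from 7 Pax5+/- mice (samples 11 to 13 and 21 to 24) and 3 WT samples (18 to 20). Leukemic samples came from 10 Pax5+/- mice (samples 1 to 10) and 3 WT samples (14, 15 and 17), and sample 16, a further WT leukemia, was not analysed here. The leukemic samples are named pro-B cells in their titles but marrow cells in their descriptions, and how they were purified is not stated. Their time after irradiation is not stated either. B cell stage, purity, time since irradiation and disease therefore cannot be told apart in the stage comparison. Separate mouse numbers stand behind the Pax5+/- samples and separate numbers behind the WT samples. P-values measure the spread between these samples.

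Pax5, the factor that commits cells to the B lineage, lay between 11.31 and 11.53 on the log2 scale in the 7 Pax5+/- preleukemic samples and at 11.93, 12.06 and 11.45 in the WT ones. In the leukemias it lay between 6.85 and 11.42 in Pax5+/- mice and at 10.68, 6.32 and 10.78 in WT mice. Array medians were 6.06 to 6.20 on the log2 scale. The female-specific transcript Xist was 12.04 to 12.37 in the 3 WT leukemic samples and 5.11 to 5.56 in the 3 WT preleukemic samples, so stage and sex coincide in the WT comparison. In Pax5+/- mice both stages spanned low and high Xist levels (5.32 to 12.50 in leukemia and 5.23 to 12.15 before). Several libraries stood apart in markers of other cells. WT preleukemic sample 20, Pax5+/- leukemias 2 and 6, and WT leukemias 15 and 17 are given with and without where a result rests on them.

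In normal marrow, Hoxa9, Hoxa7 and Meis1 are active in stem and early progenitor cells and are shut off as cells mature, and forced expression of Hoxa9 with Meis1 drives acute leukemia. HLF, MECOM and GATA2 are most active in stem cells, whereas RUNX1 is needed for stem cells to arise and is also used in B cell development. MN1 is an oncogenic coactivator in myeloid leukemia, and CD34 is a sialomucin on progenitors that vascular endothelium also carries.

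Sequences upstream of 4 genes that passed the test in Pax5+/- mice are given. Of these, 3 (Hoxa7, Meis1 and Hlf) passed as lower in leukemia and Cd34 as higher. Mn1 also passed as higher, but no upstream sequence for it was available here. Each line holds the 250 bases before the RefSeq transcription start (GRCm38.p6), 5′ to 3′ on the strand of the gene. In order they span chr6:52218574-52218823 on the minus strand, chr11:19018970-19019219 on the minus strand, chr11:90390918-90391167 on the minus strand and chr1:194938571-194938820 on the plus strand. Capitals mark a match to the RUNX motif TGTGGT.
Hoxa7: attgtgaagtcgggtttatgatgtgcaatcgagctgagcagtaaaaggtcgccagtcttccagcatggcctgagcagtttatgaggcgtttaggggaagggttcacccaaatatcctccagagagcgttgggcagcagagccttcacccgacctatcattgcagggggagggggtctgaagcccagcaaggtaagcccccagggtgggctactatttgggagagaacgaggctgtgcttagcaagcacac
Meis1: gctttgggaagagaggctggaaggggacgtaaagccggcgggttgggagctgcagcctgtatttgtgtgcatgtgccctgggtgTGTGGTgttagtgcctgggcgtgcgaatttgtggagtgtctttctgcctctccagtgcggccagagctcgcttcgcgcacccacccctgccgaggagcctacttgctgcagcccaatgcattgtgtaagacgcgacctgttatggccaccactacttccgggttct
Hlf: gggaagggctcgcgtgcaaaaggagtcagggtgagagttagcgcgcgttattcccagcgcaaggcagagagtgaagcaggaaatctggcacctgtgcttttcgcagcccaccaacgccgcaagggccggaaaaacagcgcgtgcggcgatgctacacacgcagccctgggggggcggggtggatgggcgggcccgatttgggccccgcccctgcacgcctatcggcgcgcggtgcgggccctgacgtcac
Cd34: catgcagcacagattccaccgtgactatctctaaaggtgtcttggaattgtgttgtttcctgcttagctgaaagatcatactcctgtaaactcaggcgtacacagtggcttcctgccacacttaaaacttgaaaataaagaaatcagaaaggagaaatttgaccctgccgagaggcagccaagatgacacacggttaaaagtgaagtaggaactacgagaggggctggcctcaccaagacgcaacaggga

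The 4 windows differed in CpG content, with 7 CpG dinucleotides for Hoxa7, 13 for Meis1, 26 for Hlf and 6 for Cd34, against a median of 6 over 32851 windows of this length. Windows were found for 8 of the 10 genes, 11 in all. Both strands were searched for a motif of each factor, and the GATA and MECOM words share the letters AGATA and can overlap. For RUNX proteins the word was TGTGGT, which 14% of all windows held, and for GATA proteins it was AGATAA, in 9.99% of windows. For MEIS proteins it was TGACAG, in 15.9% of windows, and for HOX with PBX proteins it was TGATTTAT, in 0.837%. For HLF it was the palindrome TTACGTAA, in 0.113%, and for MECOM the word GACAAGATA, in 0.107%. TGTGGT occurred in the Meis1 window, and TGACAG in the window of the second Mecom start. The other 4 words occurred in none of the 11 windows, which says only that those letters are not there.

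**Figure D1:**
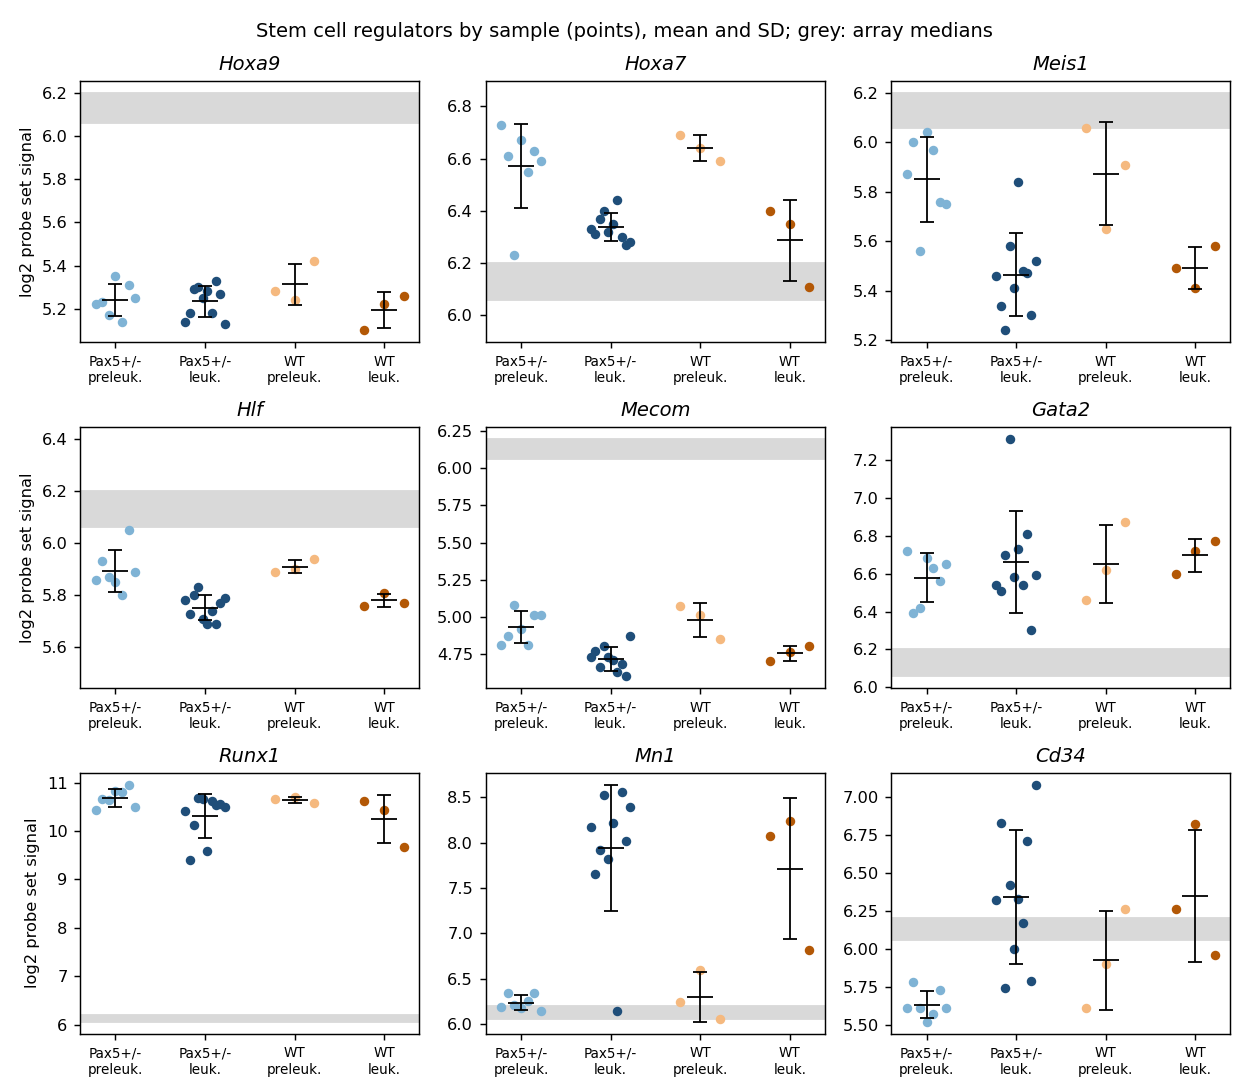
Log2 probe set signal of the 9 measured genes (y axis, own scale per gene) in the 4 groups. Points are samples, bars the mean and SD, and the grey band the range of the 23 array medians (6.06 to 6.20). Hoxa9 and Mecom lie below the band in every sample, Runx1 far above it, and Mn1 is above the WT and Pax5+/- preleukemic range in all leukemias but Pax5+/- leukemia 7.

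The first question the design poses is how leukemic marrow differed from preleukemic B cell precursors in mice with 1 copy of Pax5. Mn1 and Cd34 rose, Hoxa7, Meis1 and Hlf fell by small amounts, and Hoxa9, Gata2 and Runx1 did not pass the test. The low end of the arrays shifted as well. The 30th percentile of an array was 5.18 to 5.31 in preleukemic samples and 5.11 to 5.16 in leukemias, with no overlap. By rank on the array, the median percentile of Hlf went only from 45.1 to 44.1. That of Hoxa7 went from 57.4 to 52.9 and that of Meis1 from 44.7 to 38.1. Hoxa7 and Meis1 kept their call after quantile normalization and after median centring, whereas Hlf lost its call after quantile normalization. The share of the small falls that this shift makes up was not tested. With limma and an adjusted p under 0.05, 2 of 8 genes were higher, where 28% of all genes tested were, and 3 were lower, where 36.5% were. In either direction 64.6% of all genes tested passed, so 5 of 8 is near that background. The median log2 difference was -0.07 over the 8 genes and -0.05 over all genes tested.

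Mn1, whose protein drives myeloid transformation together with HOX genes, had the largest difference of the set. Its log2 signal in the 10 Pax5+/- leukemias, samples 1 to 10, was 8.17, 7.65, 7.92, 8.52, 7.82, 8.21, 6.14, 8.56, 8.02 and 8.39. In the 7 preleukemic samples it ran from 6.14 through a median of 6.21 to 6.34. Thus 9 of 10 leukemias lay above every preleukemic sample, and leukemia 7 lay at the preleukemic minimum. The mean rose from 6.24 ± 0.08 (SD, n = 7) to 7.94 ± 0.70 (SD, n = 10). This is a log2 difference of 1.70 ± 0.26 (SE), or 3.26-fold (95% interval 2.25 to 4.71; limma, adjusted p = 9.22e-06). This difference lay at the 97.8th percentile of all genes tested. In the array ranking Mn1 moved from a median percentile of 51.0 among all genes before leukemia to 72.9 in leukemia.

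Cd34, which marks progenitors and vascular endothelium, was below the array median in all 7 Pax5+/- preleukemic samples, at 5.52 to 5.78 with a median of 5.61. In leukemias 1 to 10 its log2 signal was 6.32, 6.83, 5.74, 6.42, 6.00, 6.33, 6.17, 6.71, 5.79 and 7.08. Here too 9 of 10 leukemias lay above the whole preleukemic range, with leukemia 3 inside it and leukemia 10 highest. The mean rose from 5.63 ± 0.09 (SD, n = 7) to 6.34 ± 0.44 (SD, n = 10), a log2 difference of 0.71 ± 0.17 (SE) or 1.63-fold (limma, adjusted p = 0.000948). The sample highest for Cd34 was not the one highest for Mn1, which was leukemia 8.

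Meis1, Hoxa7 and Hlf fell. Meis1, the TALE homeobox partner of HOXA9, ran from 5.56 to 6.04 (median 5.87) before leukemia and from 5.24 to 5.84 (median 5.46) in leukemia, below the array median in every sample. Its mean fell by 0.39 on the log2 scale (SE 0.08; 1.31-fold; limma, adjusted p = 0.000289), and 8 of 10 leukemias lay below every preleukemic sample. Leukemia 6 was the highest of the leukemias at 5.84.

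Hoxa7, a homeobox gene beside Hoxa9 in the HoxA cluster, ran from 6.23 to 6.73 (median 6.61) in preleukemic samples and from 6.27 to 6.44 (median 6.32) in leukemias. The preleukemic minimum was a single sample, 13, and the other 6 lay at 6.55 or more, above all 10 leukemias. The mean fell by 0.24 (SE 0.06; limma, adjusted p = 0.00139), which is 1.18-fold. Hlf, a bZIP factor of stem cells, went from 5.80 to 6.05 (median 5.87) before leukemia to 5.69 to 5.83 (median 5.75) in leukemia. Its mean fell by 0.14 (SE 0.03; 1.10-fold; limma, adjusted p = 0.00116), with 8 of 10 leukemias below every preleukemic sample. After quantile normalization the Hlf difference was -0.08 and no longer passed (adjusted p = 0.0732).

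Hoxa9 itself, a HOX gene often raised in acute myeloid leukemia, had low and nearly flat signals. All 23 samples lay between 5.10 and 5.42, below every array median. In Pax5+/- mice the leukemic mean was 5.24 ± 0.07 (SD, n = 10) and the preleukemic mean 5.24 ± 0.07 (SD, n = 7). The log2 difference was -0.0036, with a 95% interval of -0.08 to 0.08 (limma, adjusted p = 0.938), and its sign turned under array weights, quantile normalization and median centring.

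Runx1, the DNA-binding subunit of core binding factor, had a high signal in all groups, at the 87.5th percentile of its array or above. Before leukemia it ran from 10.44 to 10.96 with a median of 10.66. Leukemias 2 and 6 were lowest at 9.41 and 9.58, leukemia 3 was at 10.13, and the other 7 lay between 10.41 and 10.69. The mean difference was -0.38 ± 0.17 (SE; 95% interval -0.74 to -0.02) and did not pass (limma, adjusted p = 0.0593). It passed, at adjusted p between 0.0256 and 0.0456, after quantile normalization, with array weights, with the mouse number letter as a random block, or without Pax5+/- leukemia 4, 5 or 7 or WT leukemia 17. With Pax5+/- leukemias 2, 6 and 7 left out together, the difference was -0.19 (adjusted p = 0.174).

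Gata2, a zinc finger factor of stem cells that megakaryocytes and mast cells also use, ran from 6.39 to 6.72 (median 6.63) before leukemia and from 6.30 to 7.31 (median 6.58) in leukemia. The spread in leukemia was wider, with leukemia 4 at 7.31 and the next highest, leukemia 8, at 6.81. The mean difference of 0.08 (95% interval -0.13 to 0.29) did not pass (limma, adjusted p = 0.483). Without leukemia 4 it was 0.01 (adjusted p = 0.909), and without preleukemic sample 12 it was 0.05 (adjusted p = 0.686). Mecom, which encodes the zinc finger protein EVI1, had 2 probe sets with a single symbol, and all their values lay between 4.59 and 5.08. The brighter one ran from 4.81 to 5.08 before leukemia and from 4.60 to 4.87 in leukemia. With no filter on low values its difference was -0.21 (limma, adjusted p = 0.000354) and that of the second probe set was -0.02 (adjusted p = 0.353), so the probe sets disagreed.

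**Figure D2:**
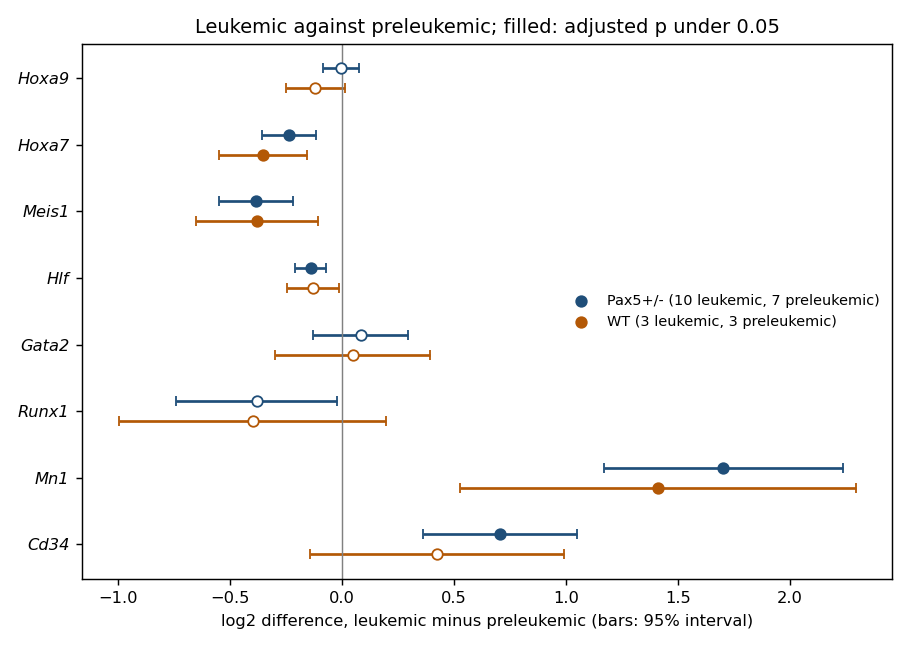
Log2 difference, leukemic minus preleukemic (x axis), of the 8 genes tested in Pax5+/- mice (blue) and WT mice (orange). Bars are 95% intervals of the limma fit, and filled points passed an adjusted p of 0.05. Mn1 lies at 1.70 and 1.41, and Hoxa7 and Meis1 lie below 0 in both genotypes.

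The same comparison in WT mice rested on 3 samples against 3. Mn1 rose, and Hoxa7 and Meis1 fell. With limma, 1 of 8 genes was higher (17.9% of all genes tested) and 2 were lower (19.3%), against 37.2% of all genes in either direction. The median was -0.125 over the 8 genes and -0.06 over all. In 5 of the 9 measured genes the groups did not overlap. Mn1 was the one that was higher (21.1% of all genes tested), and Hoxa7, Meis1, Hlf and Mecom were lower (23.3%). Mecom itself was not among the genes tested, to which these shares refer. In Pax5+/- mice the groups overlapped for each of the 9 genes, where 11.7% of all genes were higher and 10.8% lower with no overlap.

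Mn1 was at 8.07, 8.24 and 6.82 in WT leukemias 14, 15 and 17 and at 6.24, 6.60 and 6.06 in preleukemic samples 18 to 20. All 3 leukemias were above the preleukemic samples, with leukemia 17 only narrowly so. The log2 difference was 1.41 ± 0.43 (SE), or 2.66-fold (limma, adjusted p = 0.0135). It was 1.23 without leukemia 14 (adjusted p = 0.0608) and 1.145 without leukemia 15 (adjusted p = 0.0694), so the call rested on both.

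Hoxa7 was at 6.40, 6.35 and 6.11 in the WT leukemias and at 6.69, 6.64 and 6.59 in the preleukemic samples. It was thus lower in all 3 leukemias, with sample 17 lowest. The mean fell by 0.35 (SE 0.10; 1.28-fold; limma, adjusted p = 0.00688), a call that held without each single sample and was lost with samples 15, 17 and 20 all left out (-0.265; adjusted p = 0.151) or with only the WT groups fitted (adjusted p = 0.0651).

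Meis1 was at 5.49, 5.41 and 5.58 in the WT leukemias against 6.06, 5.65 and 5.91. All 3 leukemias were below the preleukemic samples. Its mean fell by 0.38 (SE 0.13; limma, adjusted p = 0.0287). The call was lost without leukemia 14 (-0.38; adjusted p = 0.0664), leukemia 15 (-0.34; 0.0908), preleukemic sample 18 (-0.29; 0.146) or sample 20 (-0.36; 0.0559), and with samples 15, 17 and 20 all left out (-0.365; 0.188). It was also lost with Xist as a covariate (-0.27; adjusted p = 0.188), after quantile normalization (-0.32; 0.0897) and with only the WT groups fitted (-0.38; 0.0600).

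Hlf was at 5.76, 5.81 and 5.77 against 5.89, 5.90 and 5.94, a difference of -0.13 that did not pass (limma, adjusted p = 0.0691). Without Pax5+/- preleukemic sample 23, which shares the pooled spread, it passed (adjusted p = 0.0388). Cd34 was at 6.26, 6.82 and 5.96 in leukemia and at 5.61, 5.90 and 6.26 before. These groups overlapped because preleukemic sample 20, at 6.26, equalled leukemia 14 and lay above the lowest leukemia, at 5.96. The Cd34 difference of 0.42 (95% interval -0.15 to 0.99) did not pass (limma, adjusted p = 0.227). With array weights it was 0.68 and passed (adjusted p = 0.0217), and without sample 20 it was 0.59 (adjusted p = 0.115). It was 0.19 without leukemia 15 (adjusted p = 0.643) and 0.27 without preleukemic sample 18 (adjusted p = 0.538).

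Runx1 was at 10.62, 10.43 and 9.68 in the WT leukemias and at 10.66, 10.70 and 10.57 before, with leukemia 17 standing below the rest. Its difference was -0.40 (limma, adjusted p = 0.276), and -0.12 without leukemia 17 (adjusted p = 0.782). Gata2 was at 6.60, 6.72 and 6.77 against 6.46, 6.62 and 6.87 (0.05; adjusted p = 0.842), with differences of -0.05 to 0.16 when 1 sample was left out. Hoxa9 was at 5.10, 5.22 and 5.26 against 5.28, 5.24 and 5.42 (-0.12; limma, adjusted p = 0.141), and the difference was -0.07 without leukemia 14 or without sample 20. Neither pair of groups was apart. The brighter Mecom probe set was at 4.70, 4.76 and 4.80 against 5.07, 5.01 and 4.85, all close to the lower end of the arrays. With no filter on low values its difference was -0.22 (limma, adjusted p = 0.0253) and that of the second probe set was 0.01 (adjusted p = 0.809).

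Whether the loss of 1 Pax5 copy altered these genes was tested at each stage and as an interaction with stage. Sex was not balanced in these comparisons. Xist was low in every WT preleukemic sample and high in every WT leukemia, whereas both Pax5+/- groups spanned low and high levels. None of the 8 genes passed in any of these 3 limma comparisons, where 0.624% of all genes passed before leukemia, 0.341% in leukemia and 0.0965% for the interaction. At an unadjusted p under 0.05 the count was also 0 of 8 in each, against 1394, 916 and 1118 of 15542 genes. Pax5+/- minus WT differences ran from -0.29 to 0.05 before leukemia, where Cd34 was the lowest, and from -0.04 to 0.23 in leukemia, where Mn1 was the highest. The Cd34 difference before leukemia was -0.12 without WT sample 20 and -0.45 without sample 18. The Mn1 difference in leukemia was -0.215 without WT leukemia 17, 0.43 without Pax5+/- leukemia 7, and 0.41 and 0.495 without WT leukemias 14 and 15. For Mn1 the 95% interval of the leukemic genotype difference was -0.48 to 0.94 and that of the interaction -0.74 to 1.33. For Cd34 these intervals were -0.47 to 0.45 and -0.38 to 0.95.

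**Figure D3:**
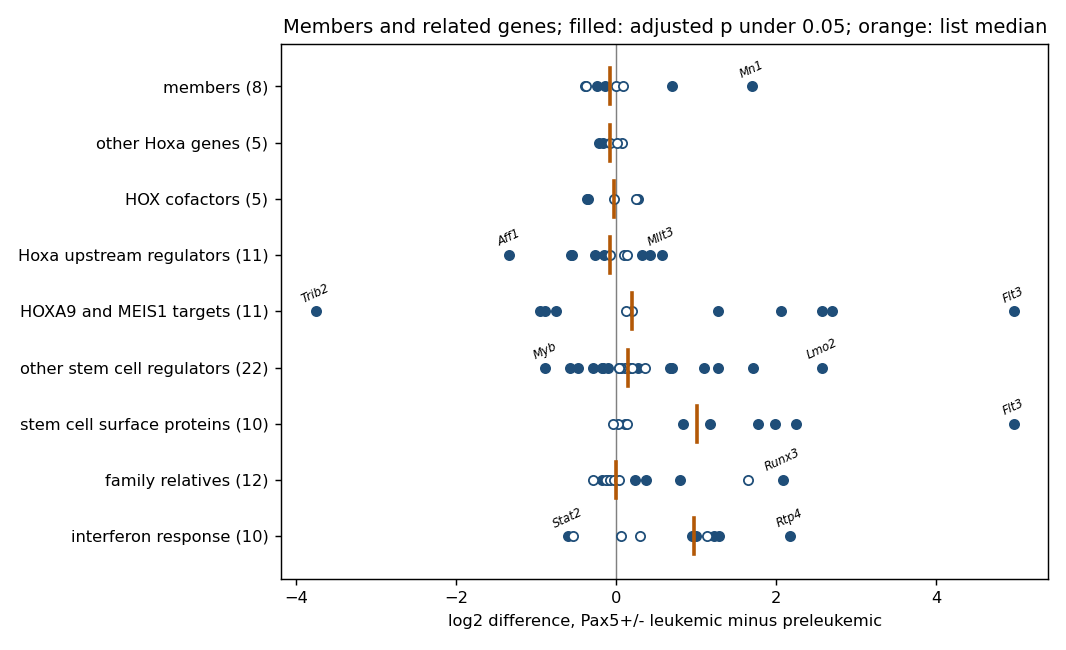
Log2 difference, Pax5+/- leukemic minus preleukemic (x axis), for the 8 genes tested and 8 lists of related genes (rows, number tested in brackets). Points are genes, filled where the limma adjusted p was under 0.05, orange ticks are list medians, and the extreme genes beyond 0.5 are named. The surface protein list has a median of 1.01 and no gene that passed as lower.

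Genes around these regulators were then described from lists of their partners, controllers and targets. Over all genes tested, 28% were higher and 36.5% lower in Pax5+/- leukemia, and 17.9% and 19.3% in WT leukemia. These shares are the background for each list count that follows, and no list was tested against them. Among the other HoxA genes, none of 5 tested was higher and 2 were lower in Pax5+/- leukemia (median -0.07). They were Hoxa4, which fell by 0.21 (limma, adjusted p = 9.34e-05), and Hoxa6, which fell by 0.16 (adjusted p = 0.0149). In WT mice 1 of 5 fell and it was Hoxa4, by 0.18 (adjusted p = 0.0375). The 5 HOX cofactors tested gave 1 higher and 2 lower: Pbx2 rose by 0.28, while Pknox1 fell by 0.37 and Pbx3, a dimer partner of HOXA9, by 0.35. In WT mice 1 rose, Pbx2, by 0.26 (adjusted p = 0.0245), and none fell.

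Of 11 regulators that act upstream of the HoxA genes, 3 were higher and 5 lower in Pax5+/- mice (median -0.08), and 4 were higher and 4 lower in WT mice. Kmt2a, the MLL1 histone methyltransferase, fell by 0.55 (adjusted p = 3.74e-05). Dot1l, which methylates histone H3 in transcribed HoxA genes, fell by 0.56 and Aff1, a fusion partner of KMT2A in infant leukemia, by 1.34. Wdr5, a core subunit of the same methyltransferase complexes, rose by 0.43. In WT mice the differences of these 4 were -0.70, -0.53, -1.22 and 0.47, and each passed (limma, largest adjusted p = 0.00546).

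The 11 genes listed as targets of HOXA9 and MEIS1 were split, with 5 higher and 4 lower in Pax5+/- mice (median 0.20) and 3 higher and 3 lower in WT mice. Flt3, a cytokine receptor of multipotent and lymphoid progenitors, rose by 4.97 (SE 0.44) on the log2 scale in Pax5+/- mice and by 3.66 (SE 0.73) in WT mice. Cdk6, a cell cycle kinase, rose by 2.06 and 2.39, and Lmo2, a bridging factor of stem cell complexes, by 2.57 and 2.03. Trib2, a pseudokinase, fell by 3.75 and 2.64. Each of these 8 differences passed with limma. The part of Hoxa9 and Meis1, both below the array median in every sample, in these differences was not tested.

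Other stem cell regulators gave 7 higher and 7 lower of 22 tested in Pax5+/- mice (median 0.14) and 6 higher and 3 lower in WT mice. Beside Lmo2, these were led by Etv6, an ETS repressor needed in adult stem cells (1.28), Setbp1, which binds SET and is mutated in myeloid disease (1.71), and the polycomb gene Bmi1 (1.11). In WT mice Etv6 rose by 1.06 and Bmi1 by 1.02, and Setbp1 was at 1.20 (adjusted p = 0.0574). Among the lower genes, Myb was at -0.89 in Pax5+/- and -1.02 in WT mice, and Fli1 at -0.47 and -0.54. Both passed with limma in both genotypes, and they were named after their values were seen. Of surface proteins of stem and progenitor cells, 6 of 10 were higher and none was lower in Pax5+/- mice (median 1.01), and 5 of 10 were higher and none was lower in WT mice (median 1.01). They included Flt3, the endothelial and stem cell receptor subunit Eng (2.25 and 1.28), the junction protein Esam (1.18 and 1.33) and the angiopoietin receptor Tek (0.84 and 0.81), all of which passed with limma in both genotypes. Eng, Esam and Tek are also endothelial genes.

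Relatives by gene family gave 4 higher and 2 lower of 12 in Pax5+/- mice and 2 higher and none lower in WT mice. Runx3, a paralog of Runx1, rose by 2.09 (SE 0.17) in Pax5+/- mice and by 1.16 in WT mice. Cbfb, the shared partner of RUNX proteins, fell by 0.18 in Pax5+/- mice. Gata1, the erythroid and megakaryocytic relative of Gata2, rose by 0.38 in Pax5+/- mice (limma, adjusted p = 0.0380) and by 1.05 in WT mice (adjusted p = 0.00365). Dbp, a PAR bZIP relative of Hlf, rose by 0.24 in Pax5+/- mice. Ly6a is induced by interferon. Genes of the interferon response gave 5 higher and 1 lower of 10 in Pax5+/- mice (median 0.98) and 1 higher in WT mice, with Rtp4, a receptor transport protein, at 2.17 and 2.08.

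Markers of other cells moved with the stage difference, and in these bulk samples fewer cells of a type and less RNA per cell cannot be told apart. The background for the marker counts is again 28% higher and 36.5% lower in Pax5+/- mice, and 17.9% and 19.3% in WT mice. In Pax5+/- leukemia 9 of 9 megakaryocyte markers, 7 of 9 endothelial markers, 9 of 10 stromal markers, 10 of 12 neutrophil markers and 8 of 11 monocyte and macrophage markers tested were higher (limma). In WT leukemia the counts were 8, 6, 8, 0 and 5. The endothelial and platelet adhesion gene Pecam1 was the 1 marker of these lists that was lower, with log2 differences of -0.68 in Pax5+/- mice (limma, adjusted p = 0.000119) and -0.79 in WT mice (adjusted p = 0.00666), and it was named after its values were seen. Of mast cell and basophil markers 0 of 6 were higher and 1 was lower in Pax5+/- mice, and none passed in WT mice. T cell markers were higher for 3 of 9 in Pax5+/- mice and 2 in WT mice, and NK cell markers for 1 of 8 and 0. Plasmacytoid dendritic cell markers gave 4 higher and 1 lower of 7 in Pax5+/- mice, and 2 lower in WT mice.

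B cell precursor markers were lower for 7 of 11 in Pax5+/- mice and 9 of 11 in WT mice, and mature B cell markers for 3 of 6 in each. Erythroid markers gave 1 lower of 6 in Pax5+/- mice and 3 higher in WT mice. Plasma cell markers gave 2 higher and 3 lower of 8 in Pax5+/- mice and 3 higher and 2 lower in WT mice. On the log2 scale the summed signal of 9 megakaryocyte markers was 10.1 to 10.2 in Pax5+/- preleukemic and 11.5 to 14.3 in leukemic samples, and 9.99 to 10.1 against 13.2 to 13.8 in WT mice. For 9 endothelial markers it was 10.8 to 11.0 against 11.1 to 11.8, and 10.8 to 10.9 against 10.9 to 11.5 in WT mice. For 11 stromal markers it was 9.64 to 9.86 against 11.2 to 12.8, and 9.66 to 9.91 against 11.9 to 12.4. The 11 B cell precursor markers summed to 15.4 to 15.6 against 13.9 to 15.1, and to 15.3 to 15.7 against 13.4 to 14.7. So the summed megakaryocyte and stromal signals were higher in every leukemic than in every preleukemic sample of the same genotype.

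Of defining markers, Emcn, Kdr, Sox17 and Plvap (endothelium) and Lepr, Bgn, Dcn and Lum (stroma) were below the array median in all 7 Pax5+/- preleukemic samples, and Lum remained so in all 10 leukemias. The mast cell genes Ms4a2, Fcer1a and Cma1 were below it in every sample of all 4 groups. The part of these markers in the results for Cd34, Gata2, Mn1 and Runx1 was not tested. Beside Runx1, the neutrophil markers averaged 10.7 and 11.0 in leukemias 2 and 6, the highest of the 10, on the log2 scale. In preleukemic sample 20, which held the highest WT preleukemic Cd34, they averaged 10.7 against a group minimum of 6.86.

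**Figure D4:**
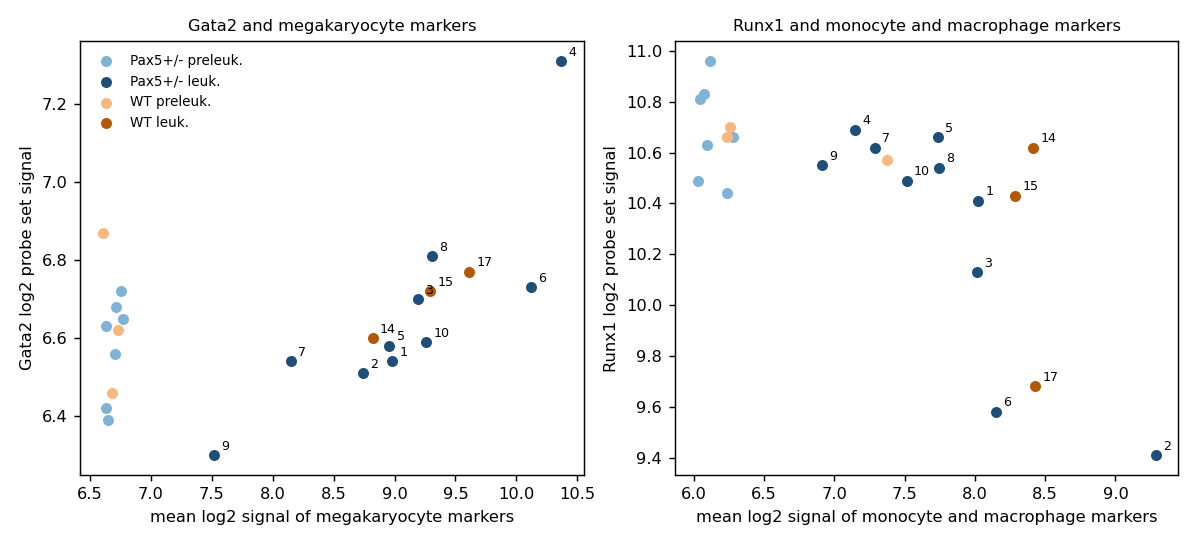
Log2 signal of Gata2 against the mean log2 signal of 9 megakaryocyte markers (left) and of Runx1 against that of 11 monocyte and macrophage markers (right), 1 point per sample, with leukemias numbered. Leukemia 4 is highest on both axes of the left panel (7.31 and 10.4), and leukemia 2 has the lowest Runx1 (9.41) and the highest monocyte and macrophage level (9.28).

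How the 9 genes varied together was examined within the 10 Pax5+/- leukemias. None of their 36 pairs passed a permutation test after adjustment over the pairs, by Pearson r or by Spearman rho. The pair of smallest p was Mecom with Cd34 (r = 0.75, permutation p = 0.0127, adjusted 0.456; rho = 0.723, permutation p = 0.0218, adjusted 0.501), and r was 0.45 without the 2 samples farthest from the Mecom median. Of 117 relations between the 9 genes and the mean levels of 13 marker lists, 1 passed. Gata2 was higher where the megakaryocyte markers were higher, by rho (0.936; permutation p = 0.00025, adjusted 0.0292), whereas r was 0.837 (permutation p = 0.00229, adjusted 0.134) and 0.675 without the 2 farthest samples. The relation was thus called by rank alone.

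Runx1 and the monocyte and macrophage markers gave r = -0.843 (permutation p = 0.00047, adjusted 0.055) and rho = -0.842 (permutation p = 0.00395, adjusted 0.154), and r was -0.741 without the 2 farthest samples. Runx1 ran against other lists too, so this was not particular to monocytes and macrophages. For neutrophil markers r was -0.812 (permutation p = 0.00519, adjusted 0.161) and for stromal markers -0.706 (permutation p = 0.018, adjusted 0.351). B cell precursor markers went the other way (r = 0.582, permutation p = 0.0879, adjusted 0.686). Cd34 and the endothelial markers gave r = 0.725 (permutation p = 0.0137, adjusted 0.32) and rho = 0.552 (permutation p = 0.105, adjusted 0.78), and r was 0.276 without the 2 farthest samples. Cd34 and the B cell precursor markers gave r = -0.665 (permutation p = 0.0343, adjusted 0.431) and rho = -0.842 (permutation p = 0.00365, adjusted 0.154), and r was -0.813 without the 2 farthest samples. Mecom and the endothelial markers gave r = 0.805 (permutation p = 0.00552, adjusted 0.161) and rho = 0.584 (permutation p = 0.0814, adjusted 0.78). Without the 2 farthest samples r was 0.284. None of the relations in this paragraph passed after adjustment, and the endothelial ones rested on the samples left out.

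The genes whose deviations from the group means were most like those of each regulator over the 23 arrays are given as a description, with no test, since samples share their cell makeup. For Mn1 they were Rasgrp3, a Ras activator of B cells (r = 0.863), Scaper (0.83) and Fads3 (0.824). For Cd34 they were the endothelial lectin gene Clec14a (0.801), Plec (0.797) and the stromal matrix gene Sparc (0.796). Gata2 was nearest to Plxna4 (0.858), Dnah6 (0.839) and the caveolar gene Cavin1 (0.827), and Runx1 to Myl4 (0.88), Sipa1l1 (0.835) and 4930520O04Rik (0.821). Hoxa7 was nearest to Cxxc4 (0.793), Keap1 (0.676) and Mapk8ip3 (0.655). Meis1 was nearest to Tpm2 (0.698), Map1b (0.688) and Zfp280d (0.677), Hlf to Mfap4 (0.715), Gm10648 (0.677) and Crct1 (0.663), and Hoxa9 to Mob3a (0.72), Rnf10 (0.719) and A330023F24Rik (0.687). None of the regulators appeared among the nearest 3 genes of another.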

How the data were processed

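Biotin-labelled RNA of 23 samples was measured on 1-colour arrays, as the labels state. The authors deposited log2 probe set signals. Transcriptome Analysis Console is the tool listed in the submitters' processing notes. Background correction and normalization are not given in the sources used here. The number of arrays limits the precision.

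Of 28944 probe sets, 21789 carried 1 symbol in the platform annotation, giving 19938 genes. Probe sets with more symbols (1621) or without one (5534) were not used. Genes above the 30th percentile of an array on at least 3 arrays (15542) were fitted with limma 3.58.1 in R 4.3.3 (4 groups in one fit, eBayes with trend). Tests were two-sided, and p-values were adjusted by Benjamini-Hochberg over the whole table. Correlations used 100000 permutations. On simulated data with 200 changed genes, 97% of those changed by a log2 difference of 1 were recovered for the Pax5+/- stage contrast. The share was 85.1% for WT, 79.1% and 88.1% for genotype before and in leukemia, and 74.6% for the interaction. At a log2 difference of 0.5 the shares were 71.6%, 65.7%, 47.8%, 56.7% and 35.8% in the same order. Each simulated gene had equal spread in all groups and was drawn independently of the others. Smaller differences, such as those between genotypes here, were not simulated. In the measured stage contrasts 64.6% (Pax5+/-) and 37.2% (WT) of genes passed, far more than the 200 simulated. The p-value needed to pass after adjustment therefore differs, and the shares do not carry over directly to those contrasts. Figures were drawn with matplotlib 3.10.9.

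The members, lists and tests were chosen with earlier results of these data known. Named genes were the 10 members, up to 4 passing genes of smallest p per list of related genes, and the 3 genes nearest to each member. Pecam1, Myb and Fli1 were named after their values were seen. Alternatives were other filters, eBayes settings and probe sets, array weights, median centring, quantile normalization and a fit of only the groups compared. Further ones were Xist as a covariate, a random block by the letter of the mouse numbers, and each sample left out in turn. Letters U and Y occurred only in Pax5+/- leukemias, I only in preleukemic samples and L in both. WT samples had no letter and shared the same block. The fitted correlation within blocks was -0.044, so the block hardly separates mouse origin from stage. Leaving out WT samples 15, 17 and 20, or Pax5+/- leukemias 2, 6 and 7, was added after seeing the data.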

Additional observations from a re-analysis of the deposited data

Results flagged for a closer look

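Of 18 combinations of a measured gene and a group of 4 to 10 samples, 3 had a sample far from the others of its group, where chance flags about 1 in 20 groups. Mn1 was 6.14 in Pax5+/- leukemia 7, with the nearest leukemia at 7.65, a gap of 0.624 of the range of the group. Gata2 was 7.31 in Pax5+/- leukemia 4, with the nearest at 6.81 (0.495 of the range). Hoxa7 was 6.23 in Pax5+/- preleukemic sample 13, with the nearest at 6.55 (0.64 of the range).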

How the results depend on the processing

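Mn1, Cd34, Hoxa7 and Meis1 kept their direction and their call in Pax5+/- mice under all alternatives in which they were tested, with log2 differences of 1.634 to 1.963, 0.62 to 0.77, -0.29 to -0.21 and -0.43 to -0.31. With the filter at the 50th percentile, at which Meis1, Hlf and Hoxa9 were no longer tested, 1 member was lower in each genotype. In WT mice 2 members were higher with array weights. The number lower there was 1 after quantile normalization or with Xist as a covariate, and 0 with only the 2 groups fitted or with samples 15, 17 and 20 left out. Leaving out 1 sample gave 0 to 1 higher and 1 to 3 lower. Fitting only the WT groups called 3537 genes (5780 in the fit of all groups), and leaving out 1 sample gave 3794 to 6902. Before leukemia the genotypes differed in 97 genes, and in 444 with array weights, 231 with only the 2 groups, 158 with the letter block and 162 without Pax5+/- leukemias 2, 6 and 7 (40 to 137 without 1 sample). In leukemia the count was 53, and it was 127 with array weights, 1 with only the 2 groups, 21 with Xist, 88 with the letter block and 9 without WT samples 15, 17 and 20 (0 to 160 without 1 sample). The interaction count was 15, and 82 with array weights and 25 under either added omission (6 to 98 without 1 sample). The sign turned for Hoxa9 in Pax5+/- mice (0.00826 with array weights, 0.0998 after quantile normalization, 0.0151 with median centring, 0.00053 with the letter block, 0.00571 without leukemias 2, 6 and 7, and -0.02 to 0.015 without 1 sample), for the leukemic genotype difference of Cd34 (0.0103 after quantile normalization, 0.012 with median centring, 0.079 without samples 15, 17 and 20, and -0.201 to 0.229 without 1 sample) and for that of Mn1 (-0.13 without those samples, and -0.215 to 0.495 without 1 sample). Leaving out 1 sample also turned Mn1 before leukemia (-0.183 to 0.0871), the Mn1 interaction (-0.152 to 0.558) and Gata2 in WT mice (-0.0483 to 0.157). None of these passed the test in either direction, and the cause was not tested. No paired analysis was made, because separate mouse numbers stand behind the Pax5+/- samples and separate numbers behind the WT samples. Signals of Hoxa9, Mecom, Meis1 and Hlf below the array median limit what can be read from them.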

Other observations

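Pax5 and B cell precursor levels were looked up in the leukemias after the Mn1 values had been seen. In Pax5+/- leukemia 7, which had the preleukemic Mn1 level of 6.14, Pax5 was at 11.42 on the log2 scale, inside the range of the 7 preleukemic samples (11.31 to 11.53). Pax5 in the other 9 Pax5+/- leukemias was at 6.85 to 9.38. The mean level of the B cell precursor markers, Pax5 among them, was also highest in leukemia 7 (10.75, against 9.16 to 10.28 in the others). Among WT leukemias, sample 17 had Mn1 at 6.82 and Pax5 at 10.78, sample 14 had Mn1 at 8.07 and Pax5 at 10.68, and sample 15 had Mn1 at 8.24 and Pax5 at 6.32. In WT leukemia Mn1 was thus lowest where Pax5 was highest, while samples 14 and 17 had similar Pax5 levels and differed in Mn1. Within the 10 Pax5+/- leukemias, Mn1 and the B cell precursor markers gave r = -0.599 (permutation p = 0.0968, adjusted 0.708). By rank, rho was -0.539 (permutation p = 0.115, adjusted 0.79), and r was -0.924 without the 2 farthest samples. A relation of Mn1 to Pax5 itself was not tested.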
